A study of Mus musculus with 14 samples.

Results

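The genes described here are 7 mouse genes of MHC class II antigen presentation, H2-Aa, H2-Ab1, H2-Eb1, H2-DMa, H2-Oa, Cd74 and Ciita, measured in whole lung on 14 Affymetrix arrays. The rule that picks them is a list of gene names. Their symbols are carried by 15 of the 45101 probe sets, and each gene was represented by its probe set with the highest mean over the 14 arrays. All 7 genes were among the 11360 genes tested, out of 18194 genes with a probe set.

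Class II molecules are pairs of an alpha and a beta chain that show peptides from ingested proteins to CD4 T cells. In lung they are known on dendritic cells, B cells and macrophages, and on alveolar type II cells. The chains are assembled with the invariant chain Cd74, which blocks the peptide groove until it is degraded in the endosome. H2-DM then exchanges its last fragment for peptide, and H2-O restrains H2-DM. Ciita is the coactivator that switches the whole set of genes on, through factors bound at the X and Y boxes of their promoters.

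The study compared lungs of animals treated with PBS, pre-B-cell colony-enhancing factor (PBEF, the product of Nampt), injurious mechanical ventilation, or PBEF and ventilation. Control (n = 4) received PBS at 18 to 22 weeks of age. VALI (n = 4) was ventilated for 4 h at the same age. PBEF+/- (n = 3) was not ventilated, also at 18 to 22 weeks. VILI PBEF+/- (n = 3) was ventilated for 4 h, at 8 to 12 weeks. The sample labels give a tidal volume of 40 ml/kg and the series text 30 ml/kg and names recombinant human PBEF by IT administration. The labels do not settle whether PBEF+/- names a genotype or the protein given, and the group names are kept as labelled. Strain and sex are not in the labels, and the description of every sample calls the animal a control. Nothing in the labels ties each array to an animal of its own, and the p-values cover only the variation between these samples, which may be technical. Age and group cannot be told apart in any comparison with VILI PBEF+/-.

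Il6, a cytokine strongly induced in injured lung, put 2 arrays against the rest of their groups. It was at 2.78 in VALI replicate 4 against 9.60 to 9.85 in the other VALI arrays. In PBEF+/- replicate 3 it was at 10.87 against 2.10 and 2.56 in the other PBEF+/- arrays. Every comparison is therefore given for all 14 arrays and for the reduced set without these 2 arrays. Because Il6 values decided which arrays were dropped, p-values from the reduced set are conditional on that choice.

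Of the 7 genes, 4 had promoter windows in the RefSeq table used (GRCm38.p6), H2-Aa, H2-Eb1, H2-Oa and H2-DMa. The stretches below are shown because they hold the paired elements through which Ciita is known to act. Capitals mark an X box core spelled GNAAC and, 27 or 28 bases further on, a Y box core ATTGG. All are on chromosome 17 and are written 5′ to 3′ on the strand of the gene.
H2-Aa, chr17:34287824-34287933, minus strand: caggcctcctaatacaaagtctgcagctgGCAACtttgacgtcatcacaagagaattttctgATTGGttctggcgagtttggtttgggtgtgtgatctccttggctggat
H2-Eb1, chr17:34305757-34305866, plus strand: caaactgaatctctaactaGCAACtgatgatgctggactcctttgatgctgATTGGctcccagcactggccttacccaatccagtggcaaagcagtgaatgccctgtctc
H2-Oa, chr17:34092269-34092378, plus strand: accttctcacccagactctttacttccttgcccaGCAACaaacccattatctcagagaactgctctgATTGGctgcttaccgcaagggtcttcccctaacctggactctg

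The X box core began 81 bases before the annotated start of H2-Aa, 91 before that of H2-Eb1 and 76 before that of H2-Oa. The Y box core began at 48, 59 and 43 bases before these starts. All 3 carry the longer Y box spelling CTGATTGG, which was present in 4.1 percent of the 32851 windows of 300 bases on either strand. ATTGG alone, contained in that spelling, was in 37.4 percent of windows and in 4 of the 5 windows of these genes. The GNAAC and ATTGG pair on one strand within 40 bases was in 6.04 percent of windows. The spelling GNAAC was chosen after the sequences were seen. An X box spelling chosen earlier, CCNNGNNAC, was in 47.4 percent of windows, and its pair with ATTGG was in 2.26 percent of windows and in that of H2-Oa alone among these genes. The 2 windows of H2-DMa, which begin at different annotated starts, held neither pair. These matches describe letters in the windows and are not measurements of factor binding.

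The levels of the 3 classical chains were lowest on average in VILI PBEF+/-. H2-Aa, the alpha chain of I-A, was at log2 13.64, 13.57, 13.63 and 13.87 in Control 1 to 4 and at 13.52, 13.34, 13.59 and 13.77 in VALI 1 to 4. It was at 13.58, 13.73 and 13.73 in PBEF+/- 1 to 3 and at 13.19, 13.39 and 13.28 in VILI PBEF+/- 1 to 3. Every VILI PBEF+/- value lay under every Control and PBEF+/- value in this probe set, and VALI 2 lay among the VILI PBEF+/- arrays. In the other H2-Aa probe sets VILI PBEF+/- 2, at 12.99, 12.38 and 9.46, lay above the lowest Control array, at 12.68, 12.26 and 8.55. The share of all genes with VILI PBEF+/- under every Control array was not counted.

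H2-Ab1, the beta chain of I-A, was at 13.39, 13.41, 13.50 and 13.56 in Control and at 13.30, 13.09, 13.32 and 13.76 in VALI. It was at 13.54, 13.06 and 13.56 in PBEF+/- and at 12.91, 13.19 and 13.06 in VILI PBEF+/-. PBEF+/- 2 was as low as the ventilated PBEF+/- arrays, so these groups overlapped, and VALI 4 was the highest of all 14 arrays. H2-Eb1, the beta chain of I-E, was at 12.91, 12.79, 12.87 and 12.98 in Control, 12.71, 12.56, 12.81 and 13.16 in VALI, 12.92, 12.96 and 13.03 in PBEF+/-, and 12.26, 12.62 and 12.47 in VILI PBEF+/-. The lowest PBEF+/- array stood above the highest VILI PBEF+/- array in H2-Eb1 as in H2-Aa.

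The invariant chain Cd74 spanned the narrowest range of the 7 genes. It was at 13.92, 14.05, 14.04 and 14.04 in Control, 13.93, 13.86, 13.99 and 14.10 in VALI, 13.998, 13.77 and 14.21 in PBEF+/-, and 13.65, 13.93 and 13.81 in VILI PBEF+/-. Each group overlapped each other group.

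The endosomal genes spread more widely. H2-DMa, the alpha chain of the peptide exchanger, was at 10.05, 10.03, 10.11 and 10.59 in Control, 9.92, 9.70, 9.98 and 10.73 in VALI, 10.24, 10.28 and 10.33 in PBEF+/-, and 9.35, 9.74 and 9.59 in VILI PBEF+/-. H2-Oa, the alpha chain of the H2-DM inhibitor, was at 5.88, 5.46, 5.54 and 6.29 in Control, 5.49, 4.11, 5.52 and 7.04 in VALI, 6.12, 6.56 and 5.53 in PBEF+/-, and 5.09, 5.06 and 3.46 in VILI PBEF+/-. VALI 4 was the highest of all arrays for both genes, and the VILI PBEF+/- arrays lay under all PBEF+/- arrays for both.

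Ciita, the coactivator, was at 5.41, 5.77, 5.51 and 6.13 in Control, 4.40, 4.77, 5.15 and 6.18 in VALI, 5.77, 5.82 and 5.39 in PBEF+/-, and 4.56, 4.76 and 5.16 in VILI PBEF+/-. Without VALI 4, all ventilated arrays lay between 4.40 and 5.16 and all other arrays at 5.39 or above. The share of all genes split in this way was not counted, so this is a description of Ciita only. H2-Oa and Ciita exceeded the array median, which was 4.60 to 4.75, in 12 of 14 arrays each, and their lowest values lay under it. The other 5 genes exceeded it in all 14 arrays.

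**Figure D1:**
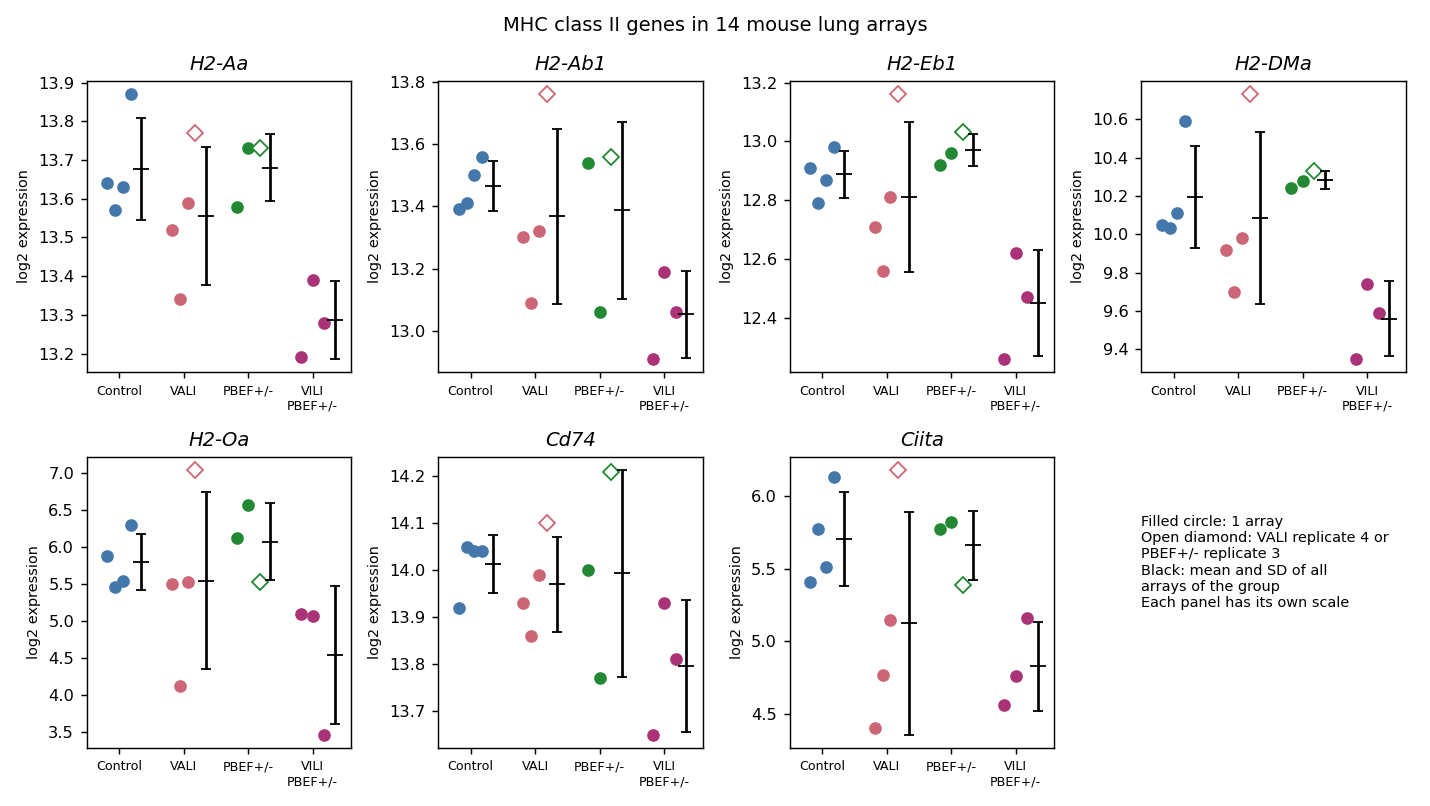
Log2 expression of the 7 MHC class II genes (vertical axis, each panel on its own scale) in the 4 groups, with 1 point per array, open diamonds for VALI replicate 4 and PBEF+/- replicate 3, and black marks for the mean and SD of all arrays of a group. VILI PBEF+/- has the lowest mean in every panel, and the open VALI diamond is the highest VALI array in every panel.

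With all 14 arrays, the order of the group means was the same at its lower end for all 7 genes, with VILI PBEF+/- lowest and VALI next. For H2-Aa the means were 13.68 ± 0.13 in Control (SD, n = 4), 13.56 ± 0.18 in VALI (n = 4), 13.68 ± 0.09 in PBEF+/- (n = 3) and 13.29 ± 0.10 in VILI PBEF+/- (n = 3). For Ciita they were 5.70 ± 0.32, 5.13 ± 0.77, 5.66 ± 0.24 and 4.83 ± 0.31 in the same order. PBEF+/- was above Control for H2-Aa, H2-Eb1, H2-DMa and H2-Oa and below it for H2-Ab1, Cd74 and Ciita. Neighbouring groups in this order overlapped for every gene. The share of all genes with this order was not counted. In the reduced set the order changed for Ciita, with means of 4.77 in VALI and 4.83 in VILI PBEF+/-. It also changed for Cd74, with 13.88 in PBEF+/- and 13.93 in VALI.

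The 7 genes tended to move together from array to array, though not every pair did so closely. Pairs of other genes were not correlated for comparison. Over the 14 arrays, the 21 pairs of genes had Pearson correlations from 0.38 (H2-Oa with Cd74) to 0.96 (H2-Eb1 with H2-DMa). After subtraction of the group means they ran from 0.06 for H2-Oa with Cd74 to 0.92 for H2-DMa with H2-Aa and with H2-Eb1. The arrays share their normalisation and, within a group, their treatment, and these correlations are a description.

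The mean deviation of the 7 genes from their own means ranked the arrays. It was lowest in VILI PBEF+/- 3 at -0.53, VILI PBEF+/- 1 at -0.50, VALI 2 at -0.44, VILI PBEF+/- 2 at -0.26 and VALI 1 at -0.18. It was highest in VALI 4 at 0.60 and Control 4 at 0.42. The genes were not scaled, so a gene with a wide spread weighs more in this mean. In VILI PBEF+/- 3 the deviation was -2.05 for H2-Oa and -0.46 to -0.14 for the other genes. VILI PBEF+/- 1 was lower than VILI PBEF+/- 3 for every gene but H2-Oa. All 3 VILI PBEF+/- arrays, VALI 1 and VALI 2 had 0 of 7 genes above their own mean, whereas Control 3, Control 4, VALI 4, PBEF+/- 1 and PBEF+/- 3 had 7 of 7.

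The 2 arrays that went against their groups in Il6 differed here. VALI 4, with Il6 at the level of the unventilated arrays, had the highest mean class II deviation of the 14 arrays and was the highest array for 5 of the 7 genes, all but H2-Aa and Cd74. PBEF+/- 3, with Il6 near that of the ventilated arrays, had a mean class II deviation of 0.18, close to 0.23 and 0.24 in PBEF+/- 1 and 2. Within it the genes diverged. H2-Eb1, H2-DMa, H2-Ab1 and Cd74 were the highest of the PBEF+/- arrays and H2-Oa and Ciita the lowest.

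**Figure D2:**
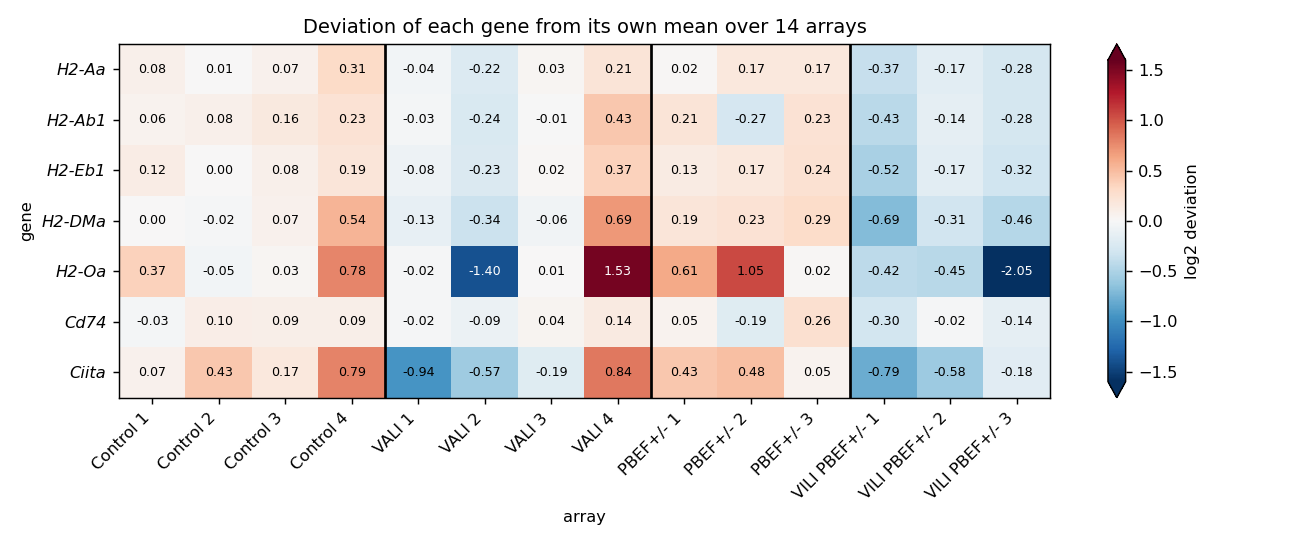
Deviation of each gene (rows) from its own mean over 14 arrays, in log2 units, for each array (columns, groups separated by black lines). The 3 VILI PBEF+/- columns are negative in every row and VALI 4 is positive in every row, while Cd74 stays within -0.30 and 0.26.

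The effect of ventilation on lungs without the PBEF+/- label was asked by comparing VALI with Control. With all 14 arrays, all 7 genes had a log2 difference under 0, but none was called, that is, none had a limma adjusted p under 0.05. The percentage of all genes called was also 0. Of all 11360 genes, 58.5 percent had a difference under 0 and 18.3 percent an unadjusted p under 0.05, which 0 of the 7 genes had. The groups overlapped for all 7 genes, where 5.98 percent of all genes had every VALI array under every Control array. The median log2 difference was -0.11 over the 7 genes and -0.06 over all genes. The differences ran from -0.04 ± 0.09 (SE) for Cd74 to -0.58 ± 0.32 for Ciita. Without VALI replicate 2, 4 of the 7 genes were still under 0. The other probe sets of H2-Aa and H2-Ab1 lay between 0.015 and 0.092, on the other side of 0.

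In the reduced set, Ciita fell by 0.93 ± 0.24 on the log2 scale in VALI, 1.90-fold, with an adjusted p of 0.0213 (limma). It was the only one of the 7 genes called, where 17.0 percent of all genes were called, 10.5 percent as lower. All 3 remaining VALI arrays lay under all 4 Control arrays for Ciita, H2-Ab1 and H2-DMa, a separation found for 23.1 percent of all genes. The other H2-Ab1 probe sets did not separate these groups, with differences of -0.04 ± 0.165 and -0.05 ± 0.14. The other 6 genes had differences from -0.09 for Cd74 to -0.75 ± 0.45 for H2-Oa, with adjusted p from 0.156 to 0.493. The 95 percent interval for H2-Eb1 ran from -0.40 to 0.01.

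The Ciita call in VALI rested on few arrays and on 1 probe set. It was lost when VALI replicate 1 or VALI replicate 2 was also left out. The other 2 Ciita probe sets, at or under the array median in all but 1 array and in all arrays, gave -0.55 ± 0.22 (adjusted p 0.109) and -0.35 ± 0.26 (adjusted p 0.370). Xist, the transcript that silences an X chromosome in females, was at 2.55 to 2.64 in Control 1, Control 4, VALI 4 and PBEF+/- 2 and at 13.33 to 13.88 in all other arrays. The Y-linked transcripts Eif2s3y, Kdm5d and Uty gave the same split, 3 of 3 in each of the 14 arrays. With this sex pattern as a covariate in the reduced set, Ciita was at -0.88 with an adjusted p of 0.0605 in VALI against Control.

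In lungs labelled PBEF+/-, the ventilated arrays had the lower mean for all 7 genes. All 3 VILI PBEF+/- arrays lay under all PBEF+/- arrays for H2-Aa, H2-Eb1, H2-DMa, H2-Oa and Ciita, a separation found for 10.8 percent of all genes. In other H2-Aa probe sets, VILI PBEF+/- 2 was at 12.99 and 9.46 against 12.92 and 9.17 in PBEF+/- 1. The second H2-DMa probe set and a Ciita probe set, both under the array median in all 14 arrays, overlapped too. The remaining H2-Aa and Ciita probe sets separated the groups. With all 14 arrays the log2 differences were -0.40 ± 0.11 (SE) for H2-Aa, -0.34 ± 0.16 for H2-Ab1, -0.52 ± 0.13 for H2-Eb1 and -0.19 ± 0.11 for Cd74. They were -0.72 ± 0.23 for H2-DMa, -1.54 ± 0.62 for H2-Oa and -0.84 ± 0.37 for Ciita. None was called, with adjusted p from 0.127 to 0.301 (limma), and the percentage of all genes called was 0. An unadjusted p under 0.05 was reached by 5 of the 7 genes and by 20.7 percent of all genes, 11.4 percent with a lower value. The median log2 difference was -0.52 over the 7 genes and -0.05 over all genes, of which 55.5 percent were under 0.

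In the reduced set, with 3 arrays against 2, 5 of the 7 genes were called lower, where 26.4 percent of all genes were called and 15.3 percent as lower. The same 5 genes separated the groups, as did 30.1 percent of all genes. H2-Oa fell by 1.81 ± 0.53 on the log2 scale, 3.50-fold, with an adjusted p of 0.0288. Ciita fell by 0.97 ± 0.28, 1.96-fold, with an adjusted p of 0.0282. H2-DMa fell by 0.70 ± 0.18, 1.62-fold, with an adjusted p of 0.0156.

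Of the classical chains, the beta chain H2-Eb1 fell by 0.49 ± 0.11, 1.40-fold, with an adjusted p of 0.0093 in limma. The alpha chain H2-Aa fell by 0.37 ± 0.11, 1.29-fold, with an adjusted p of 0.0281. H2-Ab1 and Cd74 were not called, at -0.25 ± 0.14 (adjusted p 0.187) and -0.08 ± 0.10 (adjusted p 0.542). The 95 percent interval for Cd74 ran from -0.29 to 0.13.

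Of these calls, H2-Eb1 was made in each reduced fit that left out 1 more array. Where that array was PBEF+/- replicate 1 or 2, the lone PBEF+/- array left is assumed to vary like the other groups. When PBEF+/- replicate 3 alone was left out, only H2-Eb1 was called among the MHC class II genes described here. In that fit 2157 of all genes were called. The calls of H2-Aa, H2-DMa, H2-Oa and Ciita were lost without PBEF+/- replicate 2, with H2-Aa at -0.29. The 5 calls became 2 without VILI PBEF+/- replicate 1 (H2-Eb1 and H2-Oa), where 1820 of all genes were called. They became 3 without VILI PBEF+/- replicate 3 (H2-Eb1, H2-DMa and Ciita), where 3010 of all genes were called. Ciita alone was lost without PBEF+/- replicate 1 or VILI PBEF+/- replicate 2. With the sex pattern as a covariate, H2-Eb1 and H2-DMa kept an adjusted p under 0.05, at 0.0286 and 0.0478, and H2-Aa, H2-Oa and Ciita were at 0.0818, 0.0839 and 0.0700.

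The other probe sets of H2-Aa, H2-DMa and Ciita did not pass in this comparison. Those of H2-Aa gave -0.37 ± 0.17, -0.24 ± 0.13 and -0.86 ± 0.39 in the reduced set, with adjusted p of 0.124, 0.184 and 0.128. The second H2-DMa probe set, under the array median in all 14 arrays, gave -1.04 ± 0.45 (adjusted p 0.105). The other Ciita probe sets gave -0.34 ± 0.27 (adjusted p 0.357) and 0.01 ± 0.31 (adjusted p 0.987). Several probe sets of H2-Aa and H2-Ab1 belong to classes that can share sequence with related genes, and the part of such genes in their signal was not tested.

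**Figure D3:**
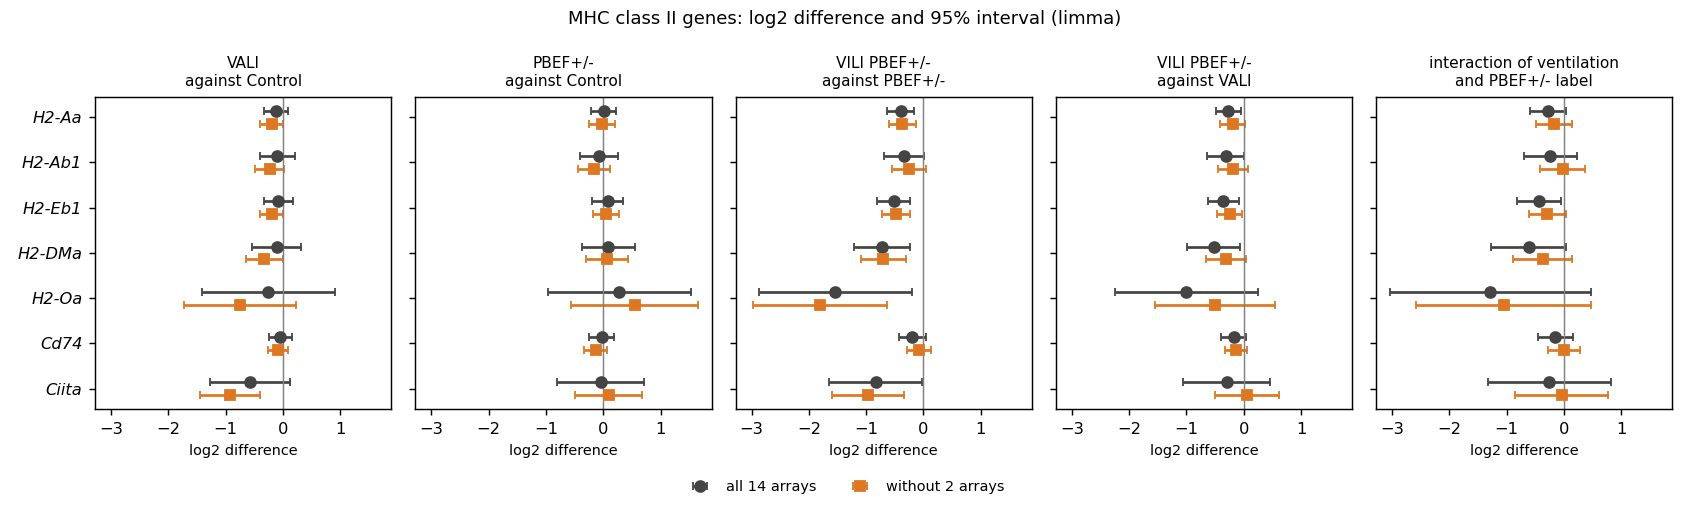
Log2 difference (horizontal axis) of the 7 MHC class II genes with its 95 percent interval from limma in 5 comparisons, with all 14 arrays (circles) and without VALI replicate 4 and PBEF+/- replicate 3 (squares). In VILI PBEF+/- against PBEF+/-, the intervals of H2-Aa, H2-Eb1, H2-DMa, H2-Oa and Ciita lie under 0 in both settings, while those of H2-Ab1 and Cd74 cross it.

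Among the ventilated lungs, VILI PBEF+/- was compared with VALI. All 7 genes had values under 0 with all 14 arrays, from -0.17 ± 0.10 (SE) for Cd74 to -1.01 ± 0.58 for H2-Oa, as did 64.3 percent of all genes. None was called, with adjusted p from 0.433 to 0.754, and the percentage of all genes called was 0. An unadjusted p under 0.05 was reached by 3 of the 7 genes, H2-Aa, H2-Eb1 and H2-DMa, and by 10.5 percent of all genes. None of the 7 had every VILI PBEF+/- array under every VALI array, where 10.2 percent of all genes did and 12.0 percent in the reduced set. In the reduced set 6 of 7 were under 0, as were 61.2 percent of all genes, Ciita was at 0.05 ± 0.25, and none was called, where 0.114 percent of all genes were.

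Without ventilation, none of the 7 genes was called between PBEF+/- and Control. Their differences ran from -0.08 ± 0.15 for H2-Ab1 to 0.28 ± 0.58 for H2-Oa with all arrays, 3 of them under 0 where 66.7 percent of all genes were, and adjusted p ran from 0.836 to 0.985. The percentage of all genes called was 0 in both settings, and 8.26 percent of all genes and 0 of the 7 had an unadjusted p under 0.05 with all arrays. None of the 7 had every PBEF+/- array under every Control array, where 4.45 percent of all genes did, or 8.54 percent in the reduced set. The 95 percent interval for Ciita ran from -0.80 to 0.72. Its sign and those of H2-Aa, H2-Ab1 and Cd74 changed under other settings.

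Whether ventilation acted differently with the label was asked by the interaction, the VILI PBEF+/- minus PBEF+/- difference less the VALI minus Control difference. It was under 0 for all 7 genes with all arrays, from -0.15 ± 0.14 for Cd74 to -1.28 ± 0.81 for H2-Oa, where 47.6 percent of all genes were under 0. None was called (adjusted p from 0.878 to 0.959), the percentage of all genes called was 0, and 5.58 percent of all genes and 1 of the 7, H2-Eb1, had an unadjusted p under 0.05. In the reduced set the values ran from -1.06 ± 0.69 for H2-Oa to 0.00 ± 0.13 for Cd74, with 0 called, and 10.4 percent of all genes and 0 of the 7 had an unadjusted p under 0.05. The calls made in one ventilation comparison and not in the other are thus not shown to differ between them.

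The other genes of the class II pathway were read from lists, and none of their members was called in any comparison with all 14 arrays. In the reduced set, 10.5 percent of all genes were called lower and 6.53 percent higher in VALI against Control, and 15.3 and 11.2 percent in VILI PBEF+/- against PBEF+/-. Of the genes called on these lists and the marker lists, 8 of 19 in the former comparison and 10 of 27 in the latter were called in each fit that left out 1 more array, and none changed sign. These fits were added after seeing the data. Of 6 other class II genes, 3 were tested. H2-DMb2, a beta chain of H2-DM, was at 9.34 and 9.29 in PBEF+/- 1 and 2 and at 8.30, 8.60 and 7.63 in VILI PBEF+/-, and fell by 1.14 ± 0.26 in the reduced set (limma adjusted p 0.0091). H2-Ob, the beta chain that pairs with H2-Oa, was at 9.10 and 10.25 against 8.29, 7.82 and 6.73, and fell by 2.06 ± 0.47 (adjusted p 0.0092). Without PBEF+/- replicate 2, H2-Ob was at -1.48 (adjusted p 0.0889), whereas H2-DMb2 was called in each fit with 1 more array out. H2-Ea, the alpha chain of I-E, had levels of 5.40 to 6.11 over the 14 arrays, and its difference was -0.13 ± 0.20 (limma adjusted p 0.637). None of the 3 was called in VALI against Control, with H2-DMb2 at -0.52 ± 0.22 (adjusted p 0.121).

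Of 10 factors known to act at class II promoters, all tested, 1 was called in VILI PBEF+/- against PBEF+/- in the reduced set. This was Spi1, the PU.1 factor of myeloid and B cells, which rose by 0.80 ± 0.20 (adjusted p 0.0150). Without PBEF+/- replicate 2, it was at 0.60 (adjusted p 0.111). In VALI against Control, Spi1 rose by 0.82 ± 0.17 (adjusted p 0.0085) and Creb1, which binds next to the X box, fell by 0.52 ± 0.14 (adjusted p 0.0286). The Creb1 call was lost without Control replicate 1, 2 or 3 or VALI replicate 1 or 2. The list's median was -0.23 in the former and -0.22 in the latter comparison, against -0.07 and -0.08 over all genes.

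Genes of peptide loading and turnover, such as endosomal proteases and the ubiquitin ligases that remove class II from the surface, gave no call among 10 tested in either ventilation comparison. In the reduced set the smallest p in VALI against Control belonged to Lgmn, asparagine endopeptidase, at 0.25 ± 0.10 (adjusted p 0.0898) and Ctsd, cathepsin D, at 0.42 ± 0.18 (adjusted p 0.130). In VILI PBEF+/- against PBEF+/- it belonged to Marchf8, a ubiquitin ligase, at -0.24 ± 0.11 (adjusted p 0.126) and Ctsl, cathepsin L, at 0.18 ± 0.09 (adjusted p 0.162). The co-stimulatory genes, 4 of 6 tested, gave no call either. Cd86, a ligand of CD28, was at 0.73 ± 0.30 (adjusted p 0.0937) and Cd274, which encodes PD-L1, at -0.45 ± 0.29 (adjusted p 0.265) in the latter comparison.

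Interferon gamma is the main known inducer of Ciita outside professional antigen-presenting cells. Ifng itself was at 2.38 to 2.49 in all 14 arrays, under the array median, and was not tested. Of the 6 genes of its pathway that were tested, 3 were called higher in VILI PBEF+/- against PBEF+/- in the reduced set, where 11.2 percent of all genes were. The transcription factor Irf1 rose by 1.07 ± 0.19 (adjusted p 0.0027), the kinase Jak1 by 0.39 ± 0.12 (adjusted p 0.0303) and the receptor chain Ifngr2 by 0.91 ± 0.31 (adjusted p 0.0493). Irf1 was called in each fit with 1 more array out. The Ifngr2 value rested on PBEF+/- 2, at 7.21 against 8.61 in PBEF+/- 1 and 8.73 to 8.90 in VILI PBEF+/-, and without that array it was 0.20 (adjusted p 0.476). The Jak1 call was lost without PBEF+/- replicate 2 or VILI PBEF+/- replicate 1 or 2, with values of 0.34 to 0.45 over these fits. In VALI against Control only the target gene Gbp2 was called, and it fell by 0.70 ± 0.19 (adjusted p 0.0255), a call lost without any 1 of the 3 VALI arrays.

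Class I antigen presentation, the sister pathway that serves CD8 T cells, gave 3 of 9 genes lower in VILI PBEF+/- against PBEF+/- in the reduced set, where 15.3 percent of all genes were called lower. These were the immunoproteasome subunits Psmb8, at -0.79 ± 0.19 (adjusted p 0.0135), and Psmb9, at -0.87 ± 0.23 (adjusted p 0.0198), and the class I coactivator Nlrc5, at -0.69 ± 0.19 (adjusted p 0.0218). In VALI against Control, Psmb9 fell by 0.68 ± 0.20 (limma adjusted p 0.0343) and the peptide transporter chain Tap2 by 0.69 ± 0.21 (adjusted p 0.0480). That made 2 of 9 genes called lower, where 10.5 percent of all genes were called lower. Without PBEF+/- replicate 1 none of the 3 calls in VILI PBEF+/- against PBEF+/- was made, with Psmb8 at -0.61, Nlrc5 at -0.58 and Psmb9 at -0.44. The Psmb9 and Nlrc5 calls there were also lost without VILI PBEF+/- replicate 2, and that of Psmb9 without VILI PBEF+/- replicate 1. Both calls in VALI were lost without any 1 of the VALI arrays or without Control replicate 1 or 4, and that of Tap2 also without Control replicate 2 or 3 or VILI PBEF+/- replicate 1 or 2.

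Of the cells known to carry class II, B cells had the list with the most calls, and in whole lung fewer cells of a type and less RNA per cell cannot be told apart. The B cell list had 7 of 9 genes tested, and with all 14 arrays 0 were called. All 7 fell in VILI PBEF+/- against PBEF+/- in the reduced set, among them the antigen receptor chains Cd79b, at -1.84 ± 0.30 (adjusted p 0.0019), and Cd79a, at -1.59 ± 0.37 (adjusted p 0.0104), the complement receptor Cr2, at -1.80 ± 0.35 (adjusted p 0.0042), and the kinase Blk, at -1.61 ± 0.35 (adjusted p 0.0074). In VALI against Control 5 of the 7 were called lower. Among them were Cr2, at -1.39 ± 0.29 (limma adjusted p 0.0093), Cd79b, at -0.97 ± 0.25 (adjusted p 0.0236), Cd79a, at -1.14 ± 0.31 (adjusted p 0.0278), and Fcer2a, the low-affinity IgE receptor, at -1.25 ± 0.39 (adjusted p 0.0480). Cr2 was called in both comparisons, and Cd79b and Blk in VILI PBEF+/- against PBEF+/-, in each fit with 1 more array out. Without PBEF+/- replicate 1, Cd79a was at -1.12 in that comparison (adjusted p 0.0688). The Cd79a, Cd79b and Fcer2a calls in VALI against Control were each lost without Control replicate 1 or VALI replicate 2, among other arrays, with values from -0.94 to -1.36, -0.85 to -1.09 and -1.04 to -1.52 over these fits.

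The mean level of the B cell list was 7.05 to 7.86 in Control and 6.26 to 6.63 in VALI 1 to 3. It was 8.69 in VALI 4, 7.98 and 8.04 in PBEF+/- 1 and 2, and 6.85 in PBEF+/- 3. In VILI PBEF+/- it was 5.88 to 6.66. The base-2 logarithm of the summed linear level ran from 10.82 to 11.48 in Control, 9.89 to 12.24 in VALI, 10.52 to 11.75 in PBEF+/- and 9.34 to 10.37 in VILI PBEF+/-. VALI 4 was highest in both the B cell list and the mean class II deviation. VILI PBEF+/- 3 was lowest in both, in class II through H2-Oa, as VILI PBEF+/- 1 was lower for every other gene. PBEF+/- 3 had the lowest B cell mean of its group with class II at its group's level. The defining B cell gene Pax5 was at 1.84 to 1.92 in all arrays and did not enter the test.

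Of the dendritic cell markers, 6 of 11 were tested and only Zbtb46, a transcription factor of classical dendritic cells that endothelium also expresses, was called. It fell by 0.88 ± 0.16 in VALI against Control (adjusted p 0.0042) and by 0.69 ± 0.19 in VILI PBEF+/- against PBEF+/- (adjusted p 0.0218), both in the reduced set. In the latter it was at -0.42 without PBEF+/- replicate 2 (adjusted p 0.178) and was not called without VILI PBEF+/- replicate 1 or 2 either. The list's mean level was 7.49 to 7.82 in Control, 7.44 to 7.97 in VALI, 7.54 to 7.94 in PBEF+/- and 7.32 to 7.47 in VILI PBEF+/-, and the base-2 logarithm of its summed level 10.88 to 11.19, 10.72 to 11.46, 10.92 to 11.41 and 10.79 to 10.80. The defining markers Xcr1 and Siglech were at 1.89 to 1.96 and 2.22 to 2.36 in all arrays, and Flt3, Batf3 and Clec9a did not enter the test either.

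Other cells gave mixed values in the reduced set. Of 7 genes tested of the monocyte and interstitial macrophage list, 3 were called lower in VILI PBEF+/- against PBEF+/-. They were Ccr2, at -1.54 ± 0.34 (limma adjusted p 0.0083), Csf1r, at -0.48 ± 0.12 (adjusted p 0.0143), and Cx3cr1, at -1.25 ± 0.32 (adjusted p 0.0153). The complement genes of that list, C1qa, C1qb and C1qc, lay above 0 there, at 0.29 ± 0.26, 0.41 ± 0.21 and 0.29 ± 0.35, with adjusted p of 0.440, 0.170 and 0.554. Without PBEF+/- replicate 2, Cx3cr1 was at -0.64 (adjusted p 0.139) and Ccr2 at -1.22 (adjusted p 0.0744), and Csf1r was not called without PBEF+/- replicate 1 or VILI PBEF+/- replicate 2. In VALI, C1qb rose by 0.78 ± 0.18 (adjusted p 0.0134), a call lost without VALI replicate 1. Alveolar macrophage markers gave 1 call of 7, Mrc1, the mannose receptor, which rose by 0.89 ± 0.24 (adjusted p 0.0272) in VALI, a call lost without any 1 of the VALI arrays. The median of that list was 0.47 in VALI against Control and 0.52 in VILI PBEF+/- against PBEF+/-. The T cell list gave 1 of 5, Cd247, a chain of the T cell receptor complex, which fell by 1.26 ± 0.32 (adjusted p 0.0153) in VILI PBEF+/- against PBEF+/- and was at -0.85 without PBEF+/- replicate 2 (adjusted p 0.135). Alveolar type II markers gave 0 calls of 7 in both comparisons, with the surfactant protein gene Sftpc at -0.15 ± 0.05 (adjusted p 0.0577) in VALI and Sftpb at 0.30 ± 0.16 (adjusted p 0.165) in VILI PBEF+/-.

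Neutrophil markers moved the other way, and 6 of 6 tested rose in both ventilation comparisons of the reduced set. The 4 with the smallest p were the same in both. Mmp8, a neutrophil collagenase, rose by 6.82 ± 0.36 in VALI (adjusted p 2.98e-06) and by 6.67 ± 0.43 in VILI PBEF+/- (adjusted p 5.82e-06). The chemokine receptor Cxcr2 rose by 2.64 ± 0.26 and 3.11 ± 0.31, and Csf3r, the receptor of granulocyte colony-stimulating factor, by 2.97 ± 0.29 and 3.12 ± 0.35. S100a8, a calprotectin subunit, rose by 3.24 ± 0.44 and 2.83 ± 0.53, the latter 1.84 without PBEF+/- replicate 1 (adjusted p 0.0165). Their mean level was 6.73 to 7.86 in Control, 10.58 to 11.30 in VALI 1 to 3, 6.96 in VALI 4, 6.86 and 8.43 in PBEF+/- 1 and 2, 10.96 in PBEF+/- 3 and 11.07 to 11.19 in VILI PBEF+/-. The arrays with neutrophil means of at least 10.58 had mean class II deviations under 0, except PBEF+/- 3. The part of B cell, dendritic cell, monocyte and neutrophil RNA in the class II values was not tested.

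**Figure D4:**
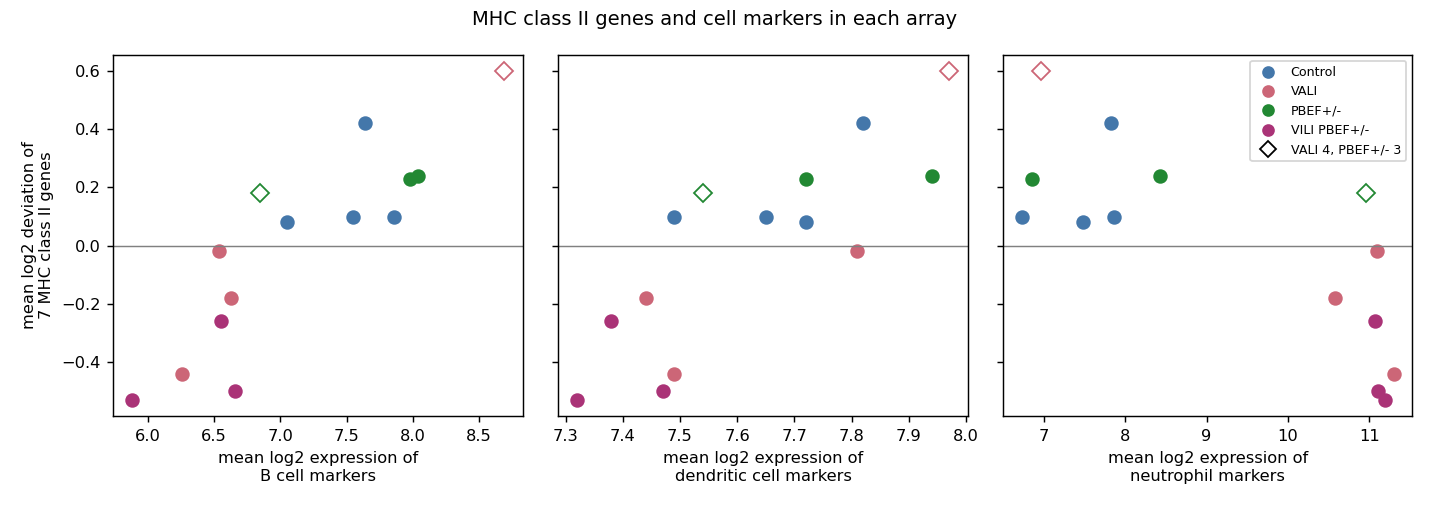
Mean log2 deviation of the 7 MHC class II genes (vertical axis) against the mean log2 expression of B cell, dendritic cell and neutrophil markers (horizontal axes), with 1 point per array coloured by group and diamonds for VALI replicate 4 and PBEF+/- replicate 3. VALI 4 is highest in B cell markers (8.69) and in class II (0.60). VILI PBEF+/- 3 is lowest in both (5.88 and -0.53), in class II through H2-Oa at -2.05. PBEF+/- 3 combines a neutrophil mean of 10.96 with a class II deviation of 0.18.

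The genes outside the 7 whose level most resembled their mean deviation over the 14 arrays were ranked by Pearson r among the genes tested. The first 10 were Atp5g3, an ATP synthase subunit (r = 0.940), Psmb8 (0.929), the ribosomal protein genes Rpl7a (0.929) and Rpl38 (0.927), Cox4i1, a cytochrome oxidase subunit (0.918), the class I-like gene H2-M3 (0.915), Rpsa, another ribosomal protein gene (0.913), Rasgrp1, a lymphocyte signalling factor (0.907), Smim8 (0.905) and Aif1, a macrophage gene in the MHC region (0.902). After subtraction of group means their r was 0.809 to 0.901. Cd79b ranked thirteenth, with r = 0.899. All values come from the same arrays and normalisation and are a description.

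Among these, H2-M3 was at 9.84, 9.50, 9.50 and 10.06 in Control, 9.29, 9.07, 9.40 and 9.99 in VALI, 9.84, 9.79 and 9.55 in PBEF+/-, and 8.78, 8.76 and 9.08 in VILI PBEF+/-. Its VILI PBEF+/- values lay under all Control and PBEF+/- values, a split whose share over all genes was not counted. H2-M3 was picked for its likeness to a class II deviation that is itself low in VILI PBEF+/-, so this separation was favoured by the choice. The ribosomal gene Rpl38 spanned only 14.33 to 14.69 over all arrays, and a Pearson r does not depend on the size of the difference.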

How the data were processed

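Total RNA of mouse lung was hybridised to 14 Affymetrix arrays after Trizol extraction and biotin labelling of cRNA from 6 µg of RNA, per the labels' protocols. The deposited values are log2 expression values, 1 per probe set and array. MAS5 and GCRMA are listed, with no version, in the submitters' processing notes, and which of them made these values is not given in the sources used here. The values run from 0.446 to 16.1, array medians from 4.60 to 4.75, and they were used without further scaling.

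Probe sets were named from the platform annotation, in which 34958 carry 1 symbol, 932 several and 9211 none. Each gene was represented by its brightest probe set on average, and a gene was tested if above the array median in at least 3 of 14 arrays. A model of the 4 groups was fitted over all genes in limma 3.58.1 (R 4.3.3) with a variance trend. Adjustment of p-values was by Benjamini-Hochberg over every gene in the fit. Calls use an adjusted p under 0.05. Each ± after a log2 difference is a standard error. The fit was tested on simulated data. Sex pattern was read from Xist, with 3 Y-linked transcripts as a check. The number of arrays limits the precision.

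Besides the 7 genes, the text names genes of 13 pathway and marker lists that were called (up to 4 by smallest p) or, where none was, up to 2 with the smallest p. H2-Ea, C1qa, C1qc and the undetected defining markers fall outside this rule and were named after their values were seen. The text also names Il6 and the 10 genes with the highest correlation with the mean deviation. The genes, lists and dropped arrays were chosen with earlier results of these data known. Alternatives tried were other filters, scalings, probe set rules, array weights, covariates and left-out arrays, the last also for the called list genes. Values of genes and samples outside these comparisons were not used here.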

Additional observations from a re-analysis of the deposited data

Results flagged for a closer look

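Each of the 7 genes was checked for an array far from the rest of its group in the 2 groups of 4 arrays, 14 checks in all, of which chance marks about 1 in 20. H2-DMa, the peptide exchanger chain, was at 10.59 in Control 4 against 10.03 to 10.11 in the other Control arrays (a gap of 0.844 of the group's range, above Dixon's 95 percent critical value). Control 4 was also the highest Control array for H2-Aa, H2-Ab1, H2-Eb1, H2-Oa and Ciita. Cd74, the invariant chain, was at 13.92 in Control 1 against 14.04 to 14.05 in the other Control arrays (a gap of 0.911 of the range). Control 1 and Control 4 are the Control arrays with a low Xist level, at 2.55 and 2.56.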

How the results depend on the processing

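With all 14 arrays 0 of the 7 genes were called in each of the 5 comparisons. This held with no filter, a stricter filter, quantile normalisation, median centring, the mean of a gene's probe sets, no variance trend and the sex pattern as a covariate, and with only the groups compared, which could not be fitted for the interaction. Array weights gave 2 calls in VALI against Control (H2-Ab1 and Ciita), 6 in VILI PBEF+/- against PBEF+/- and 5 in VILI PBEF+/- against VALI, with 4689, 3363 and 1711 genes called overall. Dropping VALI replicate 4 and PBEF+/- replicate 3 gave 1 and 5 calls in VALI against Control and VILI PBEF+/- against PBEF+/-, with 1933 and 3003 genes called overall. With the sex pattern as a covariate in that reduced fit, an alternative chosen after seeing the data, 0 and 2 were called, with 1588 and 2136 genes called overall. Female pattern arrays without PBEF+/- replicate 3, also chosen after seeing the data, left a lone PBEF+/- array. It is assumed to vary like the other groups, and no count of calls is given for VILI PBEF+/- against PBEF+/- there. Leaving out 1 array at a time, with or without those 2 arrays, gave 0 to 1 calls in VALI against Control and 0 to 5 in VILI PBEF+/- against PBEF+/-.

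Of 1428 alternative values of single genes, 86 were called, 0 of them as higher. The sign differed from that with all arrays in 101, none of them called in either fit, and 48 of those were in PBEF+/- against Control. In VALI against Control the mean of probe sets gave 0.00086 for H2-Aa and 0.0046 for H2-Ab1, the sex covariate 0.013 for H2-Oa, and other probe sets 0.019, 0.015 and 0.092 for H2-Aa and 0.053 and 0.060 for H2-Ab1.

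In PBEF+/- against Control, H2-Aa was at -0.019 in the reduced set with or without the sex covariate, at -0.022 with median centring and at -0.019 in female pattern arrays without PBEF+/- replicate 3. H2-Ab1 was at 0.039 with array weights, 0.0041 with the replicate block, 0.096 in female pattern arrays and 0.087 without PBEF+/- replicate 3 as well. Cd74 was at 0.00087 with the replicate block and 0.055 in female pattern arrays. Ciita was at 0.093 in the reduced set with or without the sex covariate, 0.042 with array weights, 0.048 with quantile normalisation, 0.20 with the replicate block, 0.050 with the sex covariate and 0.13 in female pattern arrays without PBEF+/- replicate 3.

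In VILI PBEF+/- against VALI, H2-Oa was at 0.13 with array weights. Ciita was at 0.050 in the reduced set, with the sex covariate there and in both female pattern fits, and at 0.00056 and 0.062 in its other probe sets. One of these was at 0.014 in VILI PBEF+/- against PBEF+/-. For the interaction, Cd74 was at 0.0024 in the reduced set with or without the sex covariate, and Ciita at 0.11 in female pattern arrays and 0.084 and 0.36 in its other probe sets.

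Leaving out arrays in turn changed the sign of 13 values. In VALI against Control the ranges were -0.38 to 0.022 for H2-DMa, -0.26 to 0.0018 for H2-Eb1 and -0.99 to 0.22 for H2-Oa. In PBEF+/- against Control they were -0.25 to 0.089 for Cd74, -0.14 to 0.24 for Ciita, -0.095 to 0.070 for H2-Aa and -0.40 to 0.085 for H2-Ab1. In VILI PBEF+/- against PBEF+/- Cd74 ran from -0.31 to 0.032. In VILI PBEF+/- against VALI Ciita ran from -0.54 to 0.24 and H2-Oa from -1.48 to 0.034. For the interaction Cd74 ran from -0.26 to 0.12, Ciita from -0.50 to 0.15 and H2-Ab1 from -0.40 to 0.22. The causes of these changes were not tested.

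The labels do not say what the replicate numbers share, and same-numbered arrays correlated at -0.352 to 0.316 in their deviations from group means, so they were not treated as pairs. With the replicate number as a block, 0 of the 7 genes were called in every comparison, as without it.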
